A study of Homo sapiens with 6 samples.

Results

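The genes described here are DUSP4, DUSP5, DUSP6, SPRY1, SPRY2, SPRY4, SPRED1, ETV4, ETV5 and IL17RD, 10 of the 23346 gene rows of the deposited expression table. They were taken by symbol because they belong to the genes through which the RAS and ERK kinase cascade is known to restrain or relay its own activity, and all 10 were found in the table. RNA was sequenced from KhES-1, a widely used line of human embryonic stem cells, cultured on a laminin fragment (0.5 µg per square cm of dish). The 3 AKIT libraries came from cells in AKIT medium, to which no FGF2 is added and which is known for using inhibitors of GSK3, DYRK kinases and calcineurin in place of added FGF2 and TGF-beta. The control libraries came from Essential 8 (E8), a defined medium that contains FGF2 and TGF-beta. Of the 3 E8 samples in the series, replicates 1 and 2 were used, and replicate 3 was not analysed here. Cell line and dish coating were common to both media, and the labels do not say whether replicates were separate cultures, and the p-values therefore reflect only how far these samples spread, which may be technical.

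When FGF binds its receptor, RAS, RAF and MEK kinases pass the signal on to ERK, which phosphorylates transcription factors and switches on a set of rapidly induced genes. Several of those genes encode brakes. DUSP proteins remove phosphate from MAP kinases, Sprouty and SPRED proteins act between the receptor and RAF, and IL17RD, also called SEF, holds back FGF signalling at the membrane. ETV4 and ETV5 are ETS-family transcription factors that relay the signal. In human pluripotent stem cells FGF2 is known as a factor that keeps the undifferentiated state, and transcripts of this group are widely used as a readout of FGF and ERK activity.

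The 10 genes did not move as a block. DUSP6 fell 13.5-fold in AKIT and ETV5 fell 2.19-fold, ETV4 and IL17RD rose 1.41-fold and 1.44-fold in mean RPKM (reads per kilobase of gene, scaled to library size), and the other 6 did not pass the test. "Rose" and "fell" are used only of genes with an adjusted p under 0.05 in limma's moderated test of log2(RPKM + 1), adjusted over the 14776 genes whose mean over the 5 libraries reached 0.5 RPKM. All 10 passed that filter. Thus 2 of 10 rose, where 8.22% of all genes tested rose, and 2 of 10 fell, where 11.7% of all genes fell. The median log2 difference, AKIT minus E8, was -0.27 over the 10 genes and -0.01 over all genes tested. For 9 of the 10 the AKIT and E8 libraries did not overlap, against 54.4% of all genes tested. With groups of 3 and 2 libraries, non-overlap is thus common in these data.

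**Figure D1:**
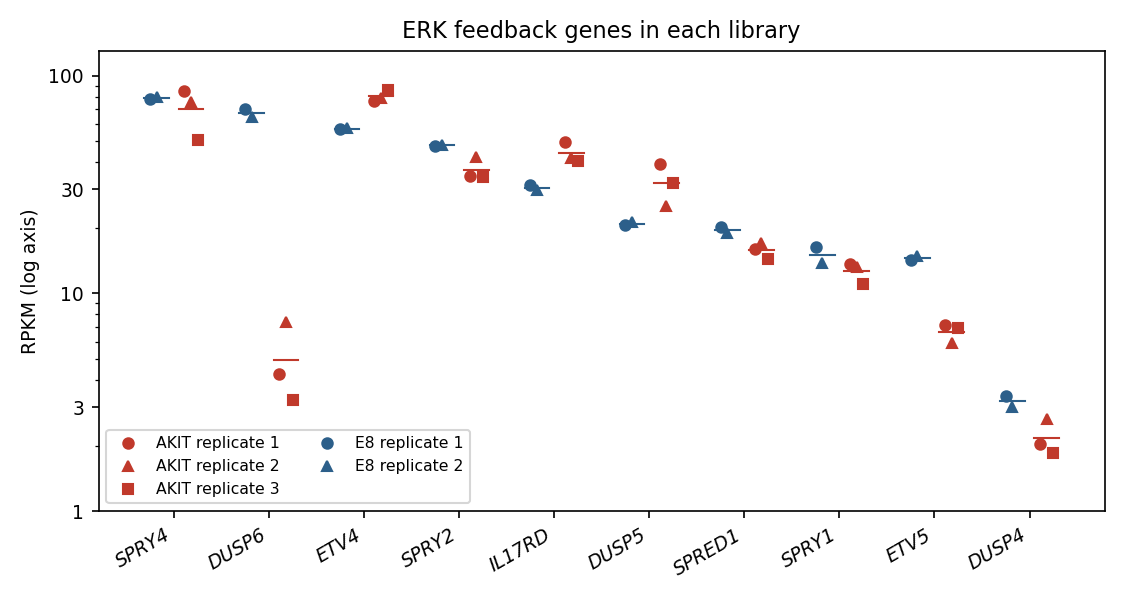
RPKM (log axis) of the 10 genes in each library, ordered by their mean in E8; symbols are replicates and short lines are group means. DUSP6 drops from 64.6 and 70.0 RPKM in E8 to between 3.24 and 7.41 in AKIT, while ETV4 and IL17RD lie higher in AKIT than in E8.

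Library totals ranged from 16242864 to 23263095 reads, recovered from the steps of the RPKM values. Among AKIT libraries, replicate 2 differed most from the others: the chi-square of reads per gene was 33.3 against replicate 1 and 27.7 against replicate 3, and 17.5 between replicates 1 and 3. The E8 pair gave 3.41. Replicate 2 was the AKIT library nearest to the E8 mean for 6 of the 10 genes and for 40.5% of all genes tested, so counts are given with and without it where they differed by over 1.5 times. The summed RPKM of 10 pluripotency markers, among them POU5F1, NANOG and LIN28A, was 3086 to 3182 in AKIT and 3367 to 3387 in E8. Of the 10, UTF1 rose and SOX2 fell. Summed RPKM of 10 mesenchyme markers was 205 to 268 in AKIT and 346 to 348 in E8. Of the 8 tested, 3 fell (THY1, COL1A1 and PDGFRB), where 11.7% of all genes tested fell. Most of each sum came from THY1, at 203, 145 and 157 RPKM in AKIT and 275 and 273 in E8. The sum therefore mainly follows THY1 and does not measure an amount of mesenchyme. COL3A1 was higher in each AKIT library, at 5.63, 2.15 and 0.141 RPKM against 0.041 and 0, and did not pass (limma adjusted p = 0.14). Of the 10, LUM and DCN were at 0 in both E8 libraries, and LUM reached 5.81 RPKM in AKIT replicate 1. Sums of 6 markers each were 5.71 to 13.7 in AKIT and 4.68 to 5.57 in E8 for mesoderm, and 8.89 to 20.3 and 8.33 to 8.65 for endoderm. The sums were 4.37 to 8.20 and 6.42 to 6.89 for neural cells, and 3.12 to 7.54 and 9.51 to 10.1 for trophoblast and amnion. In these lists FOXA2 (endoderm) rose, TFAP2A and KRT7 (trophoblast and amnion) fell, and CGA was at 0 in both E8 libraries. The part of these markers in the results below was not tested, and in bulk RNA fewer expressing cells and less RNA per cell cannot be told apart.

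Promoter sequence is shown for DUSP6 and IL17RD, because they are the called genes of opposite direction that RefSeq's promoter table (GRCh38.p14) holds. The table matched 6 of the 10 genes, and DUSP4, DUSP5, ETV4 and ETV5 were not among them. Each line gives the 250 bases before the transcription start, 5′ to 3′ on the gene's own strand, for DUSP6 at chr12:89352502-89352751 (minus strand) and for IL17RD at chr3:57165354-57165603 (minus strand). Capitals mark matches, on either strand, to the short ETS core CGGAA or to TGAATG, the start shared by the Capicua octamers TGAATGAA and TGAATGGA. Capicua is a repressor known to be relieved by ERK signalling.
DUSP6: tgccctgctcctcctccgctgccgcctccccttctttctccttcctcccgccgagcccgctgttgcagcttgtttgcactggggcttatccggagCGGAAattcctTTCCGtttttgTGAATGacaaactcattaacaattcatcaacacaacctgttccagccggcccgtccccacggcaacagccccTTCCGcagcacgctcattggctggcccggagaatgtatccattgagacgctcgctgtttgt
IL17RD: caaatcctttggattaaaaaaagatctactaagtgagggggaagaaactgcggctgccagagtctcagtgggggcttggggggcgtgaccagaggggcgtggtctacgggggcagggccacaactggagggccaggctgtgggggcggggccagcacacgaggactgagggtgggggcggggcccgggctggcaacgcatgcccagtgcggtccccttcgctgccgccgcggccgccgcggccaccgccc

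The DUSP6 window held 3 matches to CGGAA, beginning 155, 144 and 61 bases before the start, and 1 match to TGAATG, beginning 133 bases before it. The IL17RD window held neither. Among 35116 RefSeq promoter windows of the same length, 30.3% hold CGGAA and 9.9% hold TGAATG. These shorter motifs were added after the windows had been read. The longer ETS core CCGGAA, in which CGGAA is contained, lies in 14.5% of windows, the 2 octamers in 1.4% and 0.8%, the AP-1 motif TGANTCA in 6.6% and the CArG box of SRF in 1.2%. None of these 5 was found in either printed window. Of the other windows of these genes, 1 of SPRY1 and 1 of SPRY2 held CCGGAA. A match is a description of letters and not a measured binding site.

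DUSP6 encodes the cytoplasmic phosphatase that acts on ERK with high selectivity. In AKIT replicates 1, 2 and 3 it had 4.25, 7.41 and 3.24 RPKM, and in E8 replicates 1 and 2 it had 70.0 and 64.6. These values rest on 279, 486 and 177 reads in AKIT and 3486 and 2957 in E8. Every AKIT library lay far below both E8 libraries, and AKIT replicate 2 was the highest of the AKIT libraries. The log2 difference was -3.58 ± 0.26 (standard error, 95% interval -4.20 to -2.95, limma adjusted p = 0.000813), and 3 of the 14776 genes had a more negative one. The smallest fall, with AKIT replicate 3 left out, was -3.36, and the largest, without AKIT replicate 2, was -3.85.

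DUSP4 and DUSP5 encode phosphatases of the nucleus, and DUSP5 is known to be selective for ERK. DUSP5 stood at 39.1, 25.2 and 32.1 RPKM in AKIT and at 20.6 and 21.2 in E8. All AKIT libraries were above both E8 libraries, with AKIT replicate 2 the closest. The log2 difference of 0.58 ± 0.17 missed the threshold (95% interval 0.16 to 0.99, limma adjusted p = 0.0588). It passed without AKIT replicate 2 (0.74, limma adjusted p = 0.0055) and in limma's voom fit of the recovered reads (0.61, adjusted p = 0.0412). Its adjusted p lay between 0.0055 and 0.273 across the 14 alternatives tried.

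DUSP4 was the lowest of the 10 genes in both media, at 2.03, 2.65 and 1.85 RPKM in AKIT and 3.39 and 3.01 in E8. The media did not overlap, and AKIT replicate 2 again lay nearest to E8. The difference of -0.41 ± 0.15 did not pass (limma adjusted p = 0.098). Without AKIT replicate 2 the value was -0.51, past the threshold (limma adjusted p = 0.0255, the lowest of the alternatives, of which 0.419 was the highest).

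The balance between the phosphatases therefore differed by library. The ratio of DUSP6 to DUSP5, both in RPKM, was 3.40 and 3.04 in E8 and 0.109, 0.294 and 0.101 in AKIT. DUSP6 was the more abundant transcript of the pair in E8 and DUSP5 in AKIT, in every library used. The ratio of DUSP6 to DUSP4 was 20.7 and 21.4 in E8 and 1.75 to 2.80 in AKIT. These ratios are descriptions and were not tested.

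The Sprouty genes SPRY1, SPRY2 and SPRY4 and the related SPRED1 encode membrane-associated inhibitors of RAS and RAF activation, and none passed the test. SPRY2 stood at 34.4, 42.3 and 34.2 RPKM in AKIT and 47.6 and 48.2 in E8. The AKIT libraries were all lower, with a difference of -0.37 ± 0.12 (95% interval -0.65 to -0.09, limma adjusted p = 0.0689). Without AKIT replicate 2 SPRY2 fell by 0.47 (limma adjusted p = 0.00665, the lowest of the alternatives, of which 0.324 was the highest).

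SPRED1 stood at 15.9, 16.9 and 14.3 RPKM in AKIT and 20.2 and 19.0 in E8. It too was lower in each AKIT library, with a difference of -0.30 ± 0.11 (95% interval -0.55 to -0.05, limma adjusted p = 0.0931). Without AKIT replicate 2 SPRED1 fell by 0.35 (limma adjusted p = 0.0338, the lowest of the alternatives, of which 0.43 was the highest).

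SPRY1 stood at 13.7, 13.2 and 11.1 RPKM in AKIT and 16.3 and 13.8 in E8. The highest AKIT and the lowest E8 library were nearly level, and the difference of -0.24 ± 0.13 did not pass (95% interval -0.54 to 0.07, limma adjusted p = 0.236).

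SPRY4 stood at 85.3, 75.4 and 50.8 RPKM in AKIT and 77.7 and 79.7 in E8. It was the only one of the 10 whose media overlapped: AKIT replicate 1 lay above both E8 libraries and AKIT replicate 3 well below them. The difference was -0.19 ± 0.21 (95% interval -0.68 to 0.30, limma adjusted p = 0.549), and without AKIT replicate 3 it was 0.03. The interval takes in changes of either sign, and the test does not show that SPRY4 was equal in the 2 media. The ratio of SPRY4 to DUSP6 in RPKM was 1.11 and 1.23 in E8 and 10.2 to 20.1 in AKIT.

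ETV4 and ETV5 belong to the same subfamily of ETS transcription factors and changed in opposite directions. ETV4 stood at 76.6, 78.6 and 85.7 RPKM in AKIT and at 57.0 and 57.2 in E8. All AKIT libraries were higher, and ETV4 rose by 0.48 ± 0.09 on the log2 scale (95% interval 0.26 to 0.71, limma adjusted p = 0.0153). ETV5 stood at 7.16, 5.89 and 6.90 RPKM in AKIT and at 14.2 and 14.9 in E8. All AKIT libraries were lower, by 1.03 on average (log2 difference -1.03 ± 0.12, 95% interval -1.30 to -0.75, limma adjusted p = 0.00275). The intervals of the 2 genes lie on opposite sides of 0. The ratio of ETV4 to ETV5 in RPKM was 4.01 and 3.85 in E8 and 10.7, 13.3 and 12.4 in AKIT, with no overlap.

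IL17RD encodes a transmembrane inhibitor of FGF receptor signalling. It stood at 49.5, 41.8 and 40.6 RPKM in AKIT and at 31.4 and 29.7 in E8. The libraries did not overlap, and IL17RD rose by 0.51 ± 0.11 on the log2 scale (95% interval 0.24 to 0.78, limma adjusted p = 0.0243). When E8 replicate 1 or E8 replicate 2 was left out, the calls of ETV4 (limma adjusted p = 0.161 in both fits, with a lowest value of 0.00789 among the alternatives) and of IL17RD (0.157 and 0.208, with a lowest value of 0.0118) ended, while those of DUSP6 and ETV5 were kept. In such fits the lone E8 library is assumed to vary like the AKIT libraries.

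**Figure D2:**
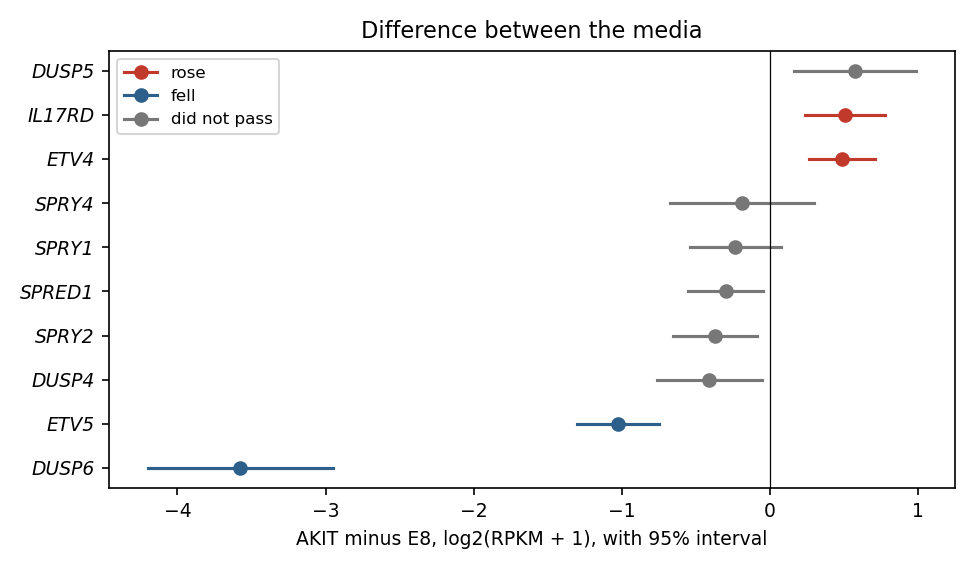
Log2 difference of each gene, on the log2(RPKM + 1) scale as AKIT minus E8, with the 95% interval of limma's moderated test (3 AKIT and 2 E8 libraries). DUSP6 lies at -3.58, apart from the other 9 genes, which lie between -1.03 and 0.58.

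Reads of overlapping genes bear on 3 of the 10, since the use of strand in counting is not given in the sources used here. In GENCODE release 29 the exons of DUSP6 share 1875 of 4632 bases with an antisense gene, AC024909.2, which has no row by that name, so reads from the 2 strands cannot be told apart. Exons of ETV4 share 68 of 3607 bases with DHX8 on the opposite strand. DHX8 overlapped between the media, with a log2 difference of 0.06 ± 0.14 (limma adjusted p = 0.809). Exons of ETV5 share 164 of 5802 bases with DGKG, which was at 0.106 RPKM or less in every library. The lengths recovered for DUSP6, ETV4 and ETV5 were shorter than these exon totals, at 2820, 2469 and 4102 bases. The overlap within the gene models that were counted is therefore not known.

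The order of the genes by mean RPKM differed between the media mainly through DUSP6. In E8 it ranked 2nd, behind SPRY4 and ahead of ETV4, SPRY2, IL17RD, DUSP5, SPRED1, SPRY1, ETV5 and DUSP4. In AKIT it ranked 9th, and the order was ETV4, SPRY4, IL17RD, SPRY2, DUSP5, SPRED1, SPRY1, ETV5, DUSP6 and DUSP4. In AKIT the neighbours ETV4 and SPRY4, IL17RD and SPRY2, SPRY2 and DUSP5, and ETV5 and DUSP6 overlapped in their ranges over libraries, and in E8 only SPRY1 and ETV5 did.

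DUSP6 made up 19.5% and 18.4% of the summed RPKM of the 10 genes in the E8 libraries and 1.15% to 2.39% in AKIT. ETV4 made up 15.9% and 16.3% in E8 and 23.4% to 30.5% in AKIT. The summed RPKM was 358.3 and 351.1 in E8 and 328.1, 309.3 and 280.8 in AKIT, lower in every AKIT library. Without DUSP6 the sum of the other 9 was 288.3 and 286.6 in E8 and 323.8, 301.9 and 277.6 in AKIT, and the media overlapped.

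**Figure D3:**
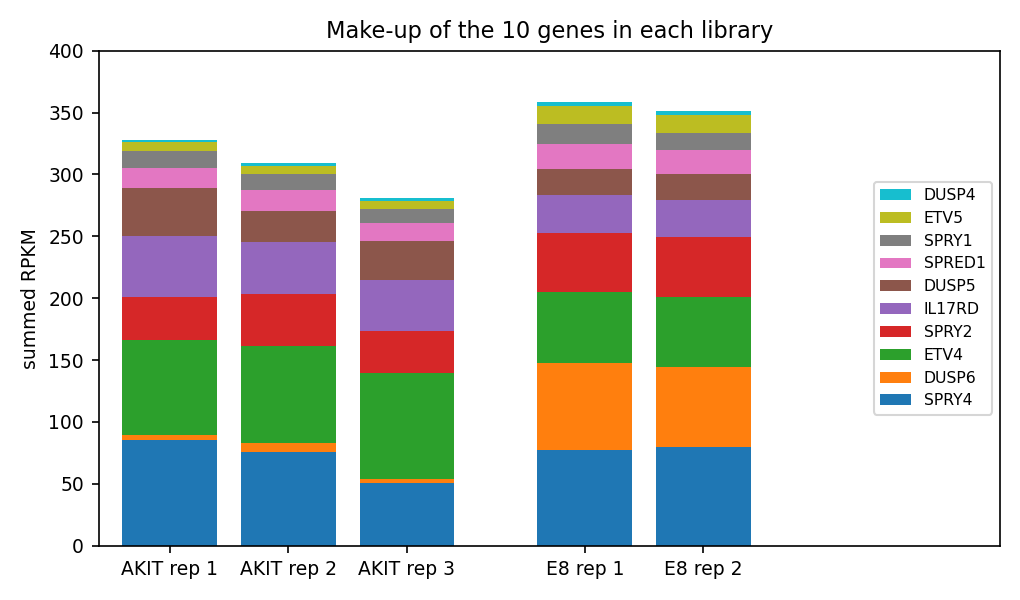
Summed RPKM of the 10 genes in each library, stacked by gene. The DUSP6 segment shrinks from 70.0 and 64.6 RPKM in E8 to 7.41 or less in AKIT, and the remainder overlaps between the media.

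AKIT replicate 2 bore on how many of the 10 passed. Without it 3 rose (DUSP5, ETV4 and IL17RD), where 14.5% of all genes tested rose. In the same fit 5 fell (DUSP4, DUSP6, SPRY2, SPRED1 and ETV5), where 17.8% of all genes fell. Both the background shares and the members' counts were higher than with all 5 libraries. For DUSP4, DUSP5, SPRY2 and SPRED1, replicate 2 was the AKIT library nearest to E8. Leaving it out widened their differences by construction, so their added calls are not separate support.

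**Figure D4:**
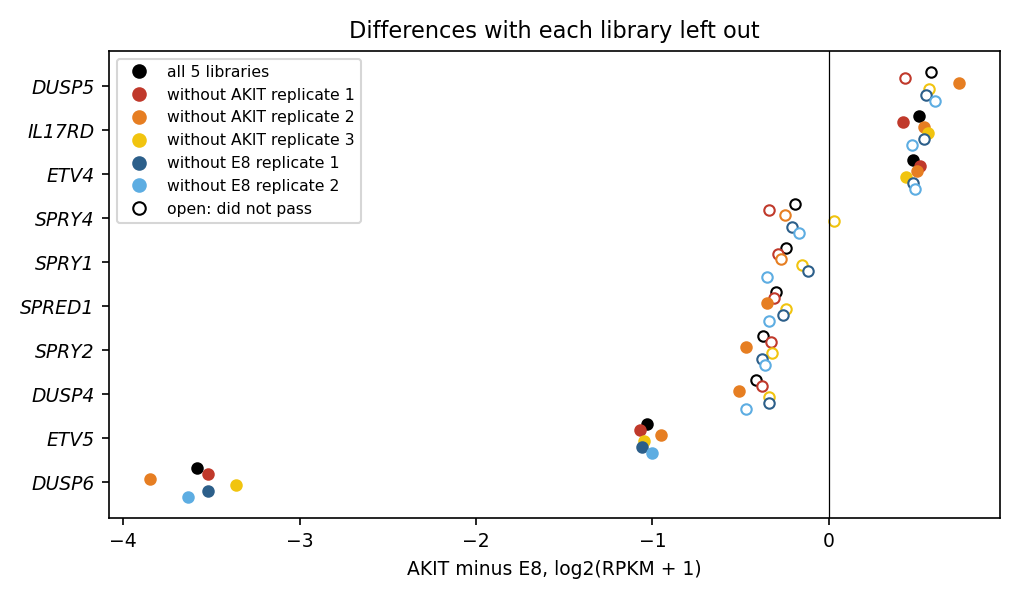
Log2 difference of each gene with all 5 libraries and with each library left out; filled symbols passed the adjusted p of 0.05 in limma. DUSP6 stays between -3.85 and -3.36 and ETV5 passes in each fit, whereas ETV4 and IL17RD do not pass with a single E8 library.

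By the distance between log2(RPKM + 1) values centred on each gene's mean over the 5 libraries, 3 genes lay nearest to DUSP6 among the 9939 tested genes that reached a mean of 5 RPKM in either medium. They were SFRP1, a secreted Wnt antagonist (distance 0.81), ID4, which binds helix-loop-helix factors and keeps them from DNA (0.83), and PRICKLE1, a planar cell polarity gene (0.91). SFRP1 was at 26.3, 26.2 and 10.4 RPKM in AKIT and 186 in each E8 library, so that it too was lowest in AKIT replicate 3. PRICKLE1 was at 2.27, 9.17 and 1.41 in AKIT, highest in replicate 2 as DUSP6 was. ID4 was nearly level across AKIT, at 3.04, 3.28 and 2.95 RPKM, against 33.6 and 33.9 in E8. The 3 genes were picked by these same values, so a shared order of libraries is no added resemblance.

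Among 7 further MAP kinase phosphatases, 1 rose and 0 fell, with a median log2 difference of -0.02. For this list and those below, counts without AKIT replicate 2 stand beside shares of 14.5% that rose and 17.8% that fell. With all 5 libraries the shares over all genes tested were 8.22% that rose and 11.7% that fell. At an unadjusted p under 0.05, 3 phosphatases were higher and 2 lower in limma, and voom called 1 and 0. The share of all genes that passes this unadjusted threshold is not given, so such counts, here and below, are descriptions and are not compared with it. The phosphatase gene that rose was DUSP7, which encodes a cytoplasmic ERK phosphatase of the same subgroup as DUSP6. It stood at 19.6, 14.1 and 18.7 RPKM in AKIT and 10.04 and 9.20 in E8, a log2 difference of 0.79 ± 0.15 with no overlap (limma adjusted p = 0.015). Its call ended without AKIT replicate 3 (adjusted p = 0.0514) and without E8 replicate 1 or 2 (0.102 and 0.138), and its lowest adjusted p among the alternatives was 0.00162. Without AKIT replicate 2, 2 of these phosphatases rose. DUSP9, the remaining member of that subgroup, did not pass (limma adjusted p = 0.531), with overlapping values of 1.60 to 2.39 RPKM in AKIT and 2.33 to 2.41 RPKM in E8. It was named after its values were seen.

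Of 12 other brakes on RAS and ERK, 11 were tested, and limma called 0 in either direction (2 higher and 0 lower at an unadjusted p under 0.05, and 1 and 0 by voom). The smallest p-values were those of SPRED2, a SPRED1 relative (0.37 ± 0.11, limma adjusted p = 0.0663), and PEA15, a cytoplasmic anchor of ERK (0.34 ± 0.12, limma adjusted p = 0.0895). SPRED2 was higher in each AKIT library, at 17.1, 19.3 and 16.2 RPKM against 12.6 and 14.2, and PEA15 likewise. PEA15 passed without AKIT replicate 2 (0.44, limma adjusted p = 0.00846, with 0.417 at the highest of the alternatives), and in that fit 2 of these brakes rose. SPRED2 passed in voom (0.41, adjusted p = 0.0465, with 0.396 at the highest). SPRY3, the remaining Sprouty gene, is listed at 0 in every library.

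Of 9 other ETS factors, 8 were tested, and 1 fell and 0 rose. ELK3, a ternary complex factor, fell by 0.47 (limma adjusted p = 0.0355, and 0.0309 to 0.29 among the alternatives). Its call ended in 5 of 14 alternatives, among them those without AKIT replicate 3, without either E8 library and without the filter on low values. Without AKIT replicate 2, 1 of these factors rose and 2 fell. At an unadjusted p under 0.05, 0 of these were higher in limma, and voom called 0 higher. Of CIC, which encodes Capicua, and its partners ATXN1 and ATXN1L, limma and voom called 0 in either direction, also at an unadjusted p under 0.05. ATXN1 differed by -0.12 ± 0.14 and ATXN1L by -0.12 ± 0.14 (limma adjusted p = 0.575 and 0.584).

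Among 7 other ERK output genes, 2 fell and 0 rose, with a median of -0.16. MYC, a growth-promoting transcription factor, stood at 70.2, 125 and 74.5 RPKM in AKIT and 156 and 163 in E8 (-0.87 ± 0.24, limma adjusted p = 0.0442). Its call ended in 8 of 14 alternatives, among them each fit without AKIT replicate 1 or 3 or an E8 library (adjusted p = 0.000544 to 0.229 over all 14). PHLDA1 fell by 0.78 (limma adjusted p = 0.0135, with 0.102 and 0.127 when E8 replicates 1 and 2 were left out and 0.00629 at the lowest). At an unadjusted p under 0.05, 1 of the 7 was higher in limma, and voom called 0 higher. The higher gene was FOSL1, at 9.46, 10.5 and 9.70 RPKM in AKIT and 6.45 and 8.86 in E8. FOSL1 did not overlap between the media and did not pass (limma adjusted p = 0.131), and it was named after its values were seen. CCND1, EPHA2 and EPHA4, 3 commonly used ERK outputs named after their values were seen, overlapped between the media and differed by 0.08, -0.05 and -0.16.

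Of 11 immediate early genes, 10 were tested. Of these, 6 fell, where 11.7% of all genes tested fell, and 0 rose. The median was -0.92, with 0 higher at an unadjusted p under 0.05 and 0 higher by voom. EGR1, at 1.15, 5.59 and 1.31 RPKM in AKIT and 60.1 and 61.6 in E8, shared with DUSP6 a large fall (-4.27 ± 0.45) and a highest AKIT value in replicate 2. IER2 fell by 1.18, a call kept in all 14 alternatives. EGR3, at 10 to 82 reads in AKIT and 163 and 207 in E8, fell by 1.37. Its difference ran from -3.17 to -1.20 over the alternatives, and its call ended without E8 replicate 1 or 2 (limma adjusted p = 0.0617 and 0.104, with 0.00176 at the lowest). The count that fell was 8 without AKIT replicate 2, where 17.8% of all genes tested fell. It was 4 without AKIT replicate 3, where 1117 of 14802 genes fell. With either E8 library left out it was lower, as was the count over all genes.

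The RAS to ERK cascade itself was measured by 23 genes, of which 2 rose and 2 fell, with a median of 0.04. Over all genes tested, 8.22% rose and 11.7% fell. SHC1, a receptor adaptor, fell by 0.49, and MAP2K1, the kinase MEK1, fell by 0.42 (limma adjusted p = 0.0115 and 0.0249). HRAS and ARAF rose by 0.47 and 0.46 (limma adjusted p = 0.0232 and 0.0207). MAP2K1 was named after its values were seen. The 4 calls ended with either E8 library left out. Without AKIT replicate 3, 0 of the list rose (HRAS and ARAF at a limma adjusted p of 0.0618 and 0.0545) and 1 fell. Leaving out AKIT replicate 2 instead gave 6 that rose and 3 that fell, where 14.5% of all genes tested rose and 17.8% fell. The call of HRAS also ended in voom (adjusted p = 0.0522). Over all alternatives the adjusted p was 0.0176 to 0.208 for HRAS, 0.0148 to 0.181 for ARAF and 0.00549 to 0.159 for SHC1.

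Upstream, FGFR3 fell from 49.1 and 49.7 RPKM in E8 to 8.83, 10.3 and 8.64 in AKIT (-2.30 ± 0.11, limma adjusted p = 0.000394), and FGFR2 and FGFR1 fell by 0.89 and 0.69. The call of FGFR3 was kept in all alternatives. That of FGFR2 ended without E8 replicate 1 or 2 (limma adjusted p = 0.0951 and 0.0877, with 0.000929 at the lowest). That of FGFR1 ended in 6 of 14 alternatives, among them the fits without AKIT replicate 1 or 3 (0.0733 and 0.0591) or either E8 library (0.167 and 0.184), with 0.00183 at the lowest. Of the 8 FGF receptors and FLRT partners, 3 fell and 1 rose, the latter being FGFR4 (0.44, named after its values were seen), whose call ended without AKIT replicate 1 or either E8 library. Of 12 FGF family genes, listed here as FGF ligands though not all encode receptor ligands, 10 were tested. Of these, 4 rose and 2 fell, where 8.22% of all genes tested rose and 11.7% fell. FGF4 rose by 2.05, and FGF8 rose from a mean of 0.839 to 6.32 RPKM. FGF17 rose by 1.73 on a base of 1 and 0 recovered reads in E8, with 36, 52 and 18 in AKIT. These reads rest on a recovered length of 611 bases, the shortest that gave whole reads, and may be too low. The calls of FGF4 and FGF8 were kept in all alternatives. That of FGF17 ended without E8 replicate 1 or 2 (limma adjusted p = 0.0551 and 0.0624, with 0.00335 at the lowest), and its difference ran from 1.51 to 4.90. FGF19 also rose, and the 2 that fell were FGF12 and FGF13, known as intracellular members of the family. All 3 were named after their values were seen, and their calls ended without either E8 library. FGF2, the ligand added to E8, had transcript levels of 87.0, 132 and 101.0 RPKM in AKIT and 134 and 137 in E8 (-0.36 ± 0.17, limma adjusted p = 0.176).

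**Figure D5:**
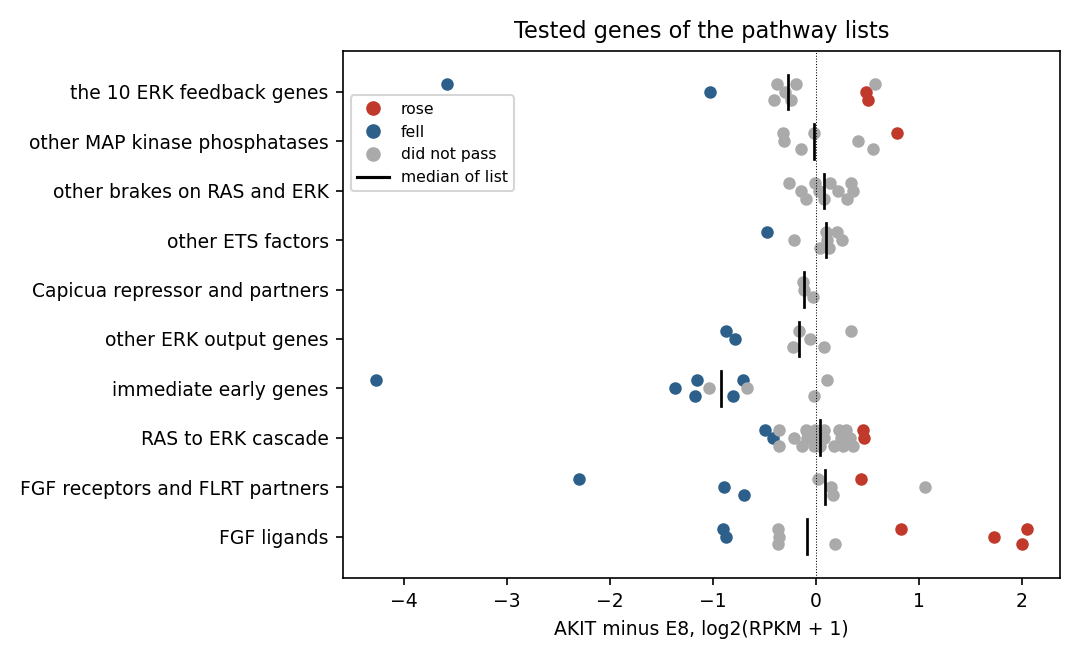
Log2 difference, AKIT minus E8, of each tested gene of the 10 genes and of 9 further pathway lists; colours give the limma call and black bars the list's median. The immediate early genes have the lowest median, -0.92, and DUSP6, FGFR3 and EGR1 lie far below the other genes of their lists.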

How the data were processed

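Expression was measured by sequencing libraries made from total RNA. The authors deposited RPKM values for 23346 genes, and libraries were matched by title per the file headers. Builds are given as hg19 and GRCh37, per the submitters' processing notes; the sources used here do not give the aligner, counting tool, annotation or handling of strand. Columns of 5 of the 6 samples were used. Whole reads were recovered from the RPKM steps for 100% of the 19892 genes above 0 (tolerance 0.02 reads). The length taken for each gene was the shortest that gave whole reads in its libraries above 0. Where a longer length also fits, the recovered reads may be too low, and the 100% does not test this.

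Log2(RPKM + 1) was tested with limma 3.58.1 in R 4.3.3, using an intensity trend and medium as the only term. Genes with a mean under 0.5 RPKM were left out, and p-values (from 2-sided tests) were adjusted by Benjamini and Hochberg's method over 14776 genes. This scale understates changes of low genes; folds are ratios of mean RPKM. The script was tested on simulated data. Settings tried instead were pseudocounts of 0.1 or 0.5, a minimum of 2 RPKM or none, scaling by median ratios or quantiles, a fit without the trend, a replicate block, voom with trimmed-mean scaling of recovered reads, and leaving out each library.

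Members, lists and tests were chosen with earlier results of these data known. All 10 members are named, and from each pathway list up to 3 called genes by size of change, or otherwise the 2 with the smallest p. Motifs were searched on both strands of RefSeq windows.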

Additional observations from a re-analysis of the deposited data

How the results depend on the processing

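Over 14 alternatives each, 129 of 140 differences of the 10 genes kept their side of the threshold, 6 lost their call and 5 gained one. The fall of DUSP6 (-3.85 to -3.36, limma adjusted p = 8.69e-05 to 0.0153) and of ETV5 (-1.12 to -0.95, limma adjusted p = 0.000748 to 0.0475) passed in each. ETV4 (0.44 to 0.52) and IL17RD (0.42 to 0.56) lost their calls with the replicate block (limma adjusted p = 0.0777 and 0.0508) and without either E8 library. The number of the 10 that rose was 2, and 0 with the replicate block and without E8 replicate 1 or 2 (3, 2 and 3 at an unadjusted p under 0.05), with 0 to 3 over fits leaving out 1 library. The number that fell was 2, and 2 to 5 over those fits, 5 being without AKIT replicate 2. Of all genes, 1214 rose and 1736 fell, against 492 and 824 with the replicate block, and 142 to 2132 and 250 to 2619 with 1 library left out. The calls of ELK3, MYC, SHC1, MAP2K1, HRAS, ARAF and FGFR1 also ended with the block. There the limma adjusted p was 0.0983 for ELK3, 0.0668 for SHC1, 0.103 for HRAS, 0.0942 for ARAF and 0.0671 for FGFR1. Without the filter on low values the calls of ELK3, MYC and FGFR1 ended. The replicate block pairs libraries by number only, and the labels do not say that numbers mark a shared culture. Deviations of same-numbered libraries correlated at 0 and 0.03, and those of AKIT replicate 3 and E8 replicate 1 also at 0.03. With 2 E8 libraries the E8 deviations mirror each other, so these values cannot decide whether libraries were paired. Fits with the block or with 1 library left out have fewer samples or fewer residual degrees of freedom. With 1 library left out, the counts that rose were 0 to 2 for other MAP kinase phosphatases, other brakes and receptors, 0 to 1 for ETS factors, 0 to 6 for the cascade and 2 to 4 for FGF ligands. The counts that fell were 0 to 2 for ETS factors and other ERK outputs, 2 to 8 for immediate early genes, 0 to 3 for the cascade and ligands, and 1 to 3 for receptors. Under the other alternatives, 4 to 8 immediate early genes, 0 to 2 cascade genes and 2 to 3 receptors fell, and 0 to 3 cascade genes and 3 to 4 ligands rose. SPRY4 changed sign (0.03) with the block and without AKIT replicate 3, and passed in none. DUSP4, at 264 to 452 reads per library, has the least depth of the 10 genes in E8, and DUSP6 in 2 AKIT libraries.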
